A study of Mus musculus with 74 samples.

Results

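Collagens are the main structural proteins of the extracellular matrix, and the mouse genes that encode their alpha chains were followed here through single cells of the pro-epicardial organ. The members were all rows of the deposited table whose mouse symbol consists of Col, a number, the letter a and a number. This rule found 44 of 30323 rows, which were all 44 such symbols in the annotation. They were sorted by known role into 11 fibrillar collagens, 8 basement membrane collagens (type IV and the multiplexins Col15a1 and Col18a1) and 25 others.

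The samples were 74 single cells sorted by flow cytometry from dissected pro-epicardial organs of C57BL/6 embryos at embryonic day 9.5. The embryos carried Tbx18Cre, a Cre recombinase driven by the mesothelial factor Tbx18, and mTmG, a membrane reporter that changes colour after recombination, so the sort followed a history of Tbx18 activity and the cells do not stand for the whole organ. Full-length cDNA was made with SMART-Seq v4 and libraries with Nextera XT. All cells shared this genotype, strain and age, and the labels name no embryo, litter, treatment or control. The cells were therefore taken as 1 sample, no p-value is given, and each ± is an SD over cells, which does not hold the spread between embryos.

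Cells were divided by a pair of genes that are not collagens. The 32 Lhx9 cells had at least 5 counts of Lhx9, a LIM homeobox factor, and under 500 CPM of the cardiac actin Actc1, where CPM is a gene's count after division by the cell's total and rescaling. The 21 Actc1 cells had at least 500 CPM of Actc1 and under 5 counts of Lhx9. In the 19 cells with neither, both genes were under these limits, and 2 cells that met both rules, at 613 and 1866 CPM of Actc1, were kept apart. The nearest values on each side of the limits were 15 and 2 counts of Lhx9, and 530 and 420 CPM of Actc1.

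Collagen alpha chains assemble as trimers in the endoplasmic reticulum after prolyl and lysyl hydroxylation. Fibrillar types I, II, III, V and XI are trimmed outside the cell and form the cross-striated fibrils of mesenchyme, whereas type IV forms the sheet-like network of basement membranes, and type XVIII is a basement membrane proteoglycan that carries endostatin. In the embryonic heart, the epicardium derived from the pro-epicardium is a known source of fibroblasts that lay down fibrillar collagen. Other collagens coat fibrils, form beaded filaments or span the cell membrane.

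The sequences upstream of 4 collagen genes are shown because their chains differ in class and in how their levels differed between the cells described below. Each line holds the 250 bases before the RefSeq transcription start (build GRCm38.p6), in the direction of the gene, and overlaps no annotated exon. Capitals mark TATAAA (the letters of a TATA box), CCAAT or GGGCGG (the GC box), read on either strand and at any distance from the start. Col3a1 and Col5a1 are fibrillar, Col13a1 is a transmembrane collagen and Col4a6 a type IV chain.
Col3a1, chr1:45311288-45311537, plus strand: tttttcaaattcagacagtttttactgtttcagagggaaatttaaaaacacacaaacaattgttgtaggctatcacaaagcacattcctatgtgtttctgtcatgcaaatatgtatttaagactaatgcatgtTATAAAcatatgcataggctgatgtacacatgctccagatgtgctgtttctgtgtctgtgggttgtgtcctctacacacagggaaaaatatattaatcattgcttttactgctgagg
Col5a1, chr2:27886175-27886424, plus strand: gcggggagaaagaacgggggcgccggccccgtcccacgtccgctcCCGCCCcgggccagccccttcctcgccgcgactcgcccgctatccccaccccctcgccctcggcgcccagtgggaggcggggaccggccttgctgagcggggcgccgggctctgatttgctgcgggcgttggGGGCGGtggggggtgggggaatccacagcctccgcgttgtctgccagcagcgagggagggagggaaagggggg
Col13a1, chr10:61979109-61979358, minus strand: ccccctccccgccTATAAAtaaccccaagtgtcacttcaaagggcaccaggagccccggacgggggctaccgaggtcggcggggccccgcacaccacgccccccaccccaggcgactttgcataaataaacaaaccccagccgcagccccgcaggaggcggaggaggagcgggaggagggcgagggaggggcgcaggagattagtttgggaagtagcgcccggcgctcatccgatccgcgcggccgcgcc
Col4a6, chrX:141474077-141474326, minus strand: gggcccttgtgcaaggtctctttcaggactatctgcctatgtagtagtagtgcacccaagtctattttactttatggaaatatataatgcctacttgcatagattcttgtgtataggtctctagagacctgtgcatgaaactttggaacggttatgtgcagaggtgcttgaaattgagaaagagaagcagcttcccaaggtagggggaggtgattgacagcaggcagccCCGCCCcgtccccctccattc

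The upstream sequences of the fibrillar pair held different motifs. The Col3a1 window held TATAAA and no GC box, and the Col5a1 window held GC boxes on both strands and no TATAAA. A RefSeq promoter was matched for 35 of the 44 genes. TATAAA or its reverse complement TTTATA was found for 5 of these genes, against 12.4% of all 32851 promoters in windows of the same length. CCAAT or ATTGG was found for 13 of the 35, against 33.8% of all promoters. GGGCGG or CCGCCC was found for 21 of the 35, against 32.7% of all promoters, and for 6 of the 8 fibrillar genes with a promoter. The units differ, since the 35 genes had 38 promoters and a gene counted if any of its windows matched, while the background counts promoters. Read on either strand, CCAAT and GGGCGG matches can share letters, and a match is only a description of the sequence.

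The cells held a median of 849718 estimated counts, with a range from 216177 to 2618538. The median was 810674 counts in Lhx9 cells, 826085 in Actc1 cells and 1088057 in cells with neither, so cells with neither were the deepest. Of 11 mesothelial markers, 9 were at least 2-fold higher in Lhx9 cells than in cells with neither, and their summed level ranged from 693 to 5508 CPM in Lhx9 cells, from 90.0 to 3215 CPM in Actc1 cells and from 65.0 to 2700 CPM in cells with neither. All 8 cardiomyocyte markers that were detected in at least 10% of cells were higher in Actc1 cells than in cells with neither, and the summed level of all 10 ranged from 2861 to 40964 CPM in Actc1 cells and from 581 to 6348 CPM in cells with neither. Of 10 endothelial markers, Cdh5, Tie1, Emcn and Cldn5 were detected in no cell, whereas Egfl7 was detected in 67 cells, Pecam1 in 62, Tek in 52, Kdr in 8, Esam in 6 and Erg in 2. Of the 4 that passed the filter, Kdr was lower in Actc1 cells than in cells with neither and the others were not called. The endothelial list summed to 43.8 to 309 CPM in Lhx9 cells, 11.9 to 231 CPM in Actc1 cells and 87.0 to 262 CPM in cells with neither. The blood markers Hba-a1 and Hba-a2 were higher in both Lhx9 and Actc1 cells than in cells with neither, and their list summed to at most 1554, 376 and 138 CPM in a cell of each state, in that order. The hepatoblast list summed to at most 206, 310 and 44.5 CPM, and the neural crest list to at most 129, 68.8 and 15.1 CPM, in the same order. The part of depth and of these cell types in the collagen values was not tested.

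Of the 44 collagens, 24 were detected, at 5 or more counts, in at least 10% of cells and could enter the comparisons. Col15a1, Col6a4, Col6a5 and Col28a1 were listed at 0 in every cell, where a floor of 3 in 74 is 4.05% and the exact 95% upper bound is 4.86%, both for the counting of cells alone. Col4a4, Col5a3, Col10a1 and Col19a1 had between 1 and 6 counts in the whole table and reached 5 counts in no cell. The remaining 12 were detected in 1 to 7 cells each. These were Col6a3, Col12a1 and Col9a2 in 7 cells, Col22a1 and Col7a1 in 5, Col17a1 in 4, Col4a3 and Col11a2 in 3, Col20a1, Col24a1 and Col14a1 in 2, and Col6a6 in 1. Thus the renal and cochlear type IV chains Col4a3 and Col4a4, the hypertrophic cartilage collagen Col10a1 and the tendon and skin collagens Col12a1 and Col14a1 were rare or not detectable at this depth.

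Per kilobase of the longest coding transcript, the scale on which genes can be set beside each other, Col3a1 was the highest collagen. It averaged 61.8 CPM per kb over all 74 cells, followed by Col18a1 at 46.2, Col1a2 at 35.0, Col1a1 at 20.3, Col5a1 at 13.7, Col6a2 at 13.4, Col13a1 at 10.7 and Col5a2 at 10.04 CPM per kb. Col3a1 was the top collagen of 14 of 32 Lhx9 cells, 6 of 21 Actc1 cells and 14 of 19 cells with neither. Col18a1 led in 10 Lhx9 cells, 9 Actc1 cells and 3 cells with neither. The pro-epicardial cells thus held a fibrillar collagen and a basement membrane collagen as their most frequent leaders. A cell had a median of 12 detected collagens in the Lhx9 state, 12 in the Actc1 state and 14 with neither.

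Summed over the class, fibrillar collagens were lower in Lhx9 cells and in Actc1 cells than in cells with neither. The total ranged from 103 to 1891 CPM with a median of 417 CPM in Lhx9 cells, from 47.4 to 2323 CPM with a median of 477 CPM in Actc1 cells, and from 26.4 to 6196 CPM with a median of 1253 CPM in cells with neither. The ranges overlapped widely, and the cell with the lowest total was one with neither. The means were 595 ± 473 CPM in Lhx9 cells, 714 ± 720 CPM in Actc1 cells and 1526 ± 1334 CPM in cells with neither. The last mean was raised by the cell at 6196 CPM, the shallowest with neither at 327963 counts. The next highest total with neither was 2517 CPM. That same cell gave the highest Col3a1, Col1a1, Col1a2, Col5a2 and Col18a1 level among cells with neither, so these highest values below are not separate cells.

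The basement membrane total differed less, at 325 ± 215 CPM in Lhx9 cells, 398 ± 186 CPM in Actc1 cells and 484 ± 424 CPM in cells with neither. Its medians were 282, 344 and 288 CPM in the same states. The 25 other collagens summed to 102 ± 66.3 CPM in Lhx9 cells, 320 ± 210 CPM in Actc1 cells and 277 ± 123 CPM in cells with neither. The median of this class was 85.4 CPM in Lhx9 cells, 318 CPM in Actc1 cells and 238 CPM in cells with neither, and the ranges overlapped. The pair of cells that met both rules had fibrillar totals of 247 and 596 CPM and basement membrane totals of 508 and 549 CPM.

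**Figure D1:**
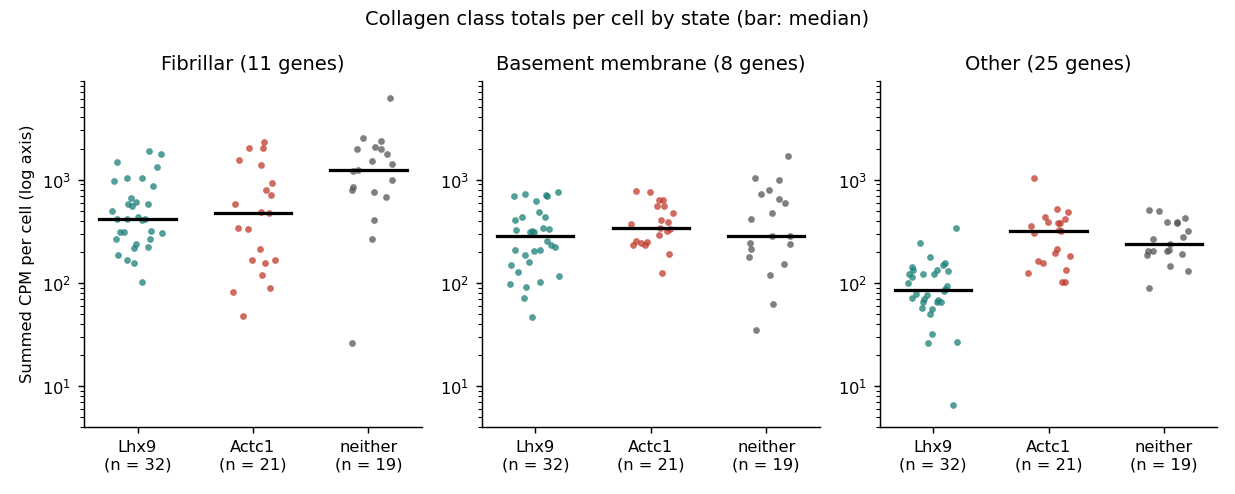
Summed CPM of each collagen class in each cell (log axis), for Lhx9, Actc1 and neither cells from left to right, with the median as a bar. Fibrillar medians were 417, 477 and 1253 CPM in these states, and the clouds of points overlap in each class.

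Type by type, the comparison with cells with neither used a rule of size, in which a gene was called higher or lower when the mean CPM of the states differed at least 2-fold. In Lhx9 cells, 2 of the 24 collagens were higher, where 7.00% of all 11511 genes passed the same rule, and 11 were lower, where 10.3% of all genes did. The median log2 ratio of the 24 was -0.79, against -0.06 over all genes, and 20 of the 24 were below 0, against 54.9% of all genes. In Actc1 cells, 3 collagens were higher, against 7.62% of all genes, and 8 were lower, against 9.09% of all genes. Here the median log2 ratio of the 24 was -0.40, against -0.09 over all genes, and 14 of the 24 were below 0, a share close to the 57.3% of all genes. Both comparisons use the same 19 cells with neither, so they are not independent of each other. Col25a1 and Col26a1, called lower in both, and Col9a3, called higher in Lhx9 cells, passed the filter only through the state where they were highest. Their calls were thus partly set by that filter.

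**Figure D2:**
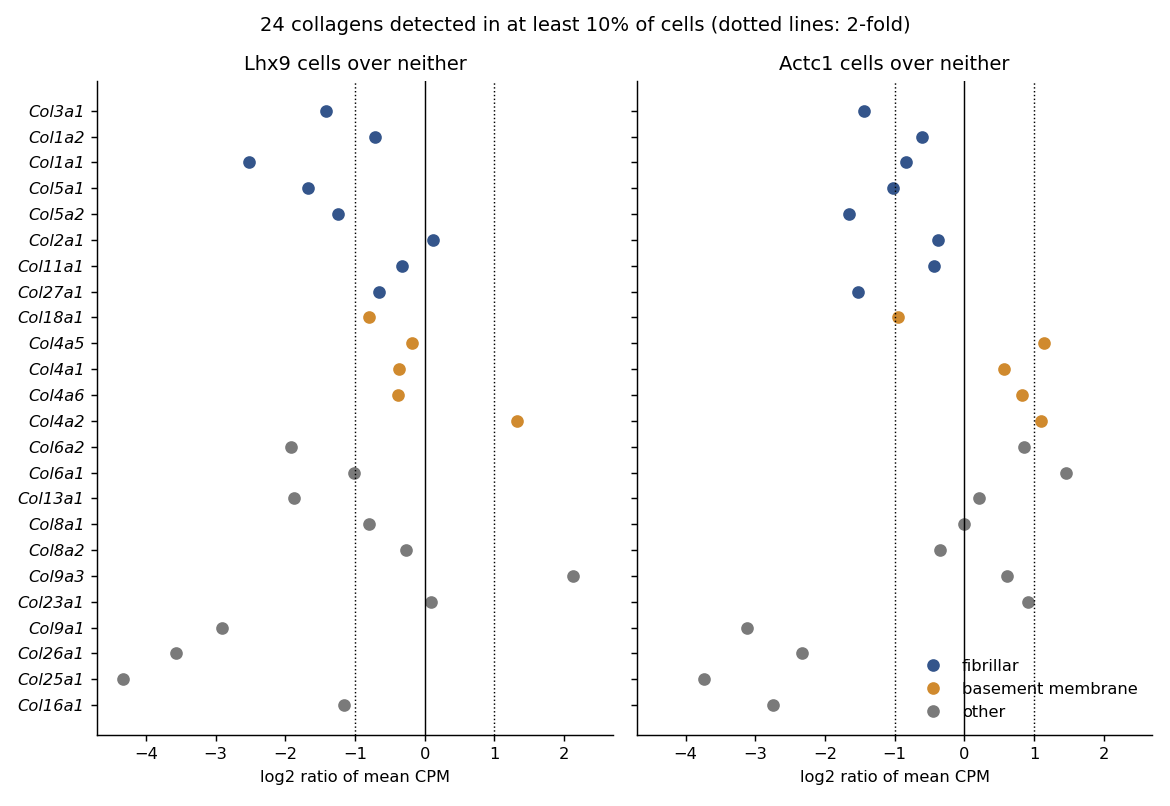
Log2 ratio of mean CPM, Lhx9 over neither cells (left) and Actc1 over neither cells (right), for the 24 collagens detected in at least 10% of cells, coloured by class, with dotted lines at 2-fold. In the right panel all 8 fibrillar genes lie below 0, and 4 of 5 basement membrane genes lie above 0. Of all genes, 57.3% lie below 0 in this comparison.

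Among the fibrillar collagens, 4 of 8 were lower in each comparison and none was higher. Of all genes, 10.3% were lower and 7.00% higher in Lhx9 cells, and 9.09% and 7.62% in Actc1 cells. Col3a1, the chain of type III fibrils in distensible tissue (ENSMUSG00000026043, chr1:45311538-45349706, GRCm38), had a lowest, median and highest level of 0, 105 and 1192 CPM in Lhx9 cells, 0, 116 and 1083 CPM in Actc1 cells, and 0, 561 and 2698 CPM in cells with neither. All states included cells at 0, but the median was several times higher in cells with neither. The log2 ratio to cells with neither was -1.42 for Lhx9 cells and -1.45 for Actc1 cells. Col3a1 shares exon bases with the annotated gene Gm47302 on the same strand, whose reads cannot be told apart where they overlap.

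Col5a1 and Col5a2, chains of the type V collagen that starts and thins fibrils, were lower in both comparisons. For Col5a1, the lowest, median and highest levels were 0, 55.8 and 233 CPM in Lhx9 cells, 0, 37.0 and 756 CPM in Actc1 cells, and 0, 155 and 696 CPM in cells with neither. Its log2 ratio was -1.67 in Lhx9 cells and -1.03 in Actc1 cells, and the Actc1 value did not pass 2-fold with scran size factors (-0.92) or after thinning (-0.77). Its exons overlap 2810430I11Rik and Gm13372 on the opposite strand. Col5a2, the gene next to Col3a1, had medians of 37.5 CPM in Lhx9 cells, 36.7 CPM in Actc1 cells and 135 CPM in cells with neither. Its highest cell reached 223, 114 and 335 CPM in these states, and the log2 ratio was -1.24 in Lhx9 cells and -1.66 in Actc1 cells.

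The type I chains, which build the commonest collagen of connective tissue, parted from each other in Lhx9 cells. Col1a1 (ENSMUSG00000001506, chr11:94936224-94953042) had a lowest, median and highest level of 0, 21.2 and 230.5 CPM in Lhx9 cells, 0, 5.64 and 768 CPM in Actc1 cells, and 0, 177 and 1140 CPM in cells with neither. Col1a2 (ENSMUSG00000029661, chr6:4504814-4541544) had 17.9, 113 and 624 CPM in Lhx9 cells, 0, 36.7 and 805 CPM in Actc1 cells, and 13.2, 184 and 1390 CPM in cells with neither. Col1a2 was thus present in every Lhx9 cell, whereas Col1a1 was at or near 0 in many of them. The log2 ratio of Lhx9 cells to cells with neither was -2.53 for Col1a1 and -0.71 for Col1a2, and that of Actc1 cells was -0.83 and -0.60.

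Because type I collagen usually holds a pair of Col1a1 chains for each Col1a2 chain, the ratio of Col1a1 to Col1a2 per kb was computed, a choice made after the values were seen. It was 0.242 from the mean levels of Lhx9 cells, 0.727 for Actc1 cells and 0.853 for cells with neither. Within cells, the median ratio was 0.144 in 32 Lhx9 cells, 0.188 in the 15 Actc1 cells with Col1a2 detected and 0.844 in 19 cells with neither. The other 6 Actc1 cells, 3 of which had Col1a1, gave no ratio. Col1a2 was detected without Col1a1 in 12 of 32 Lhx9 cells, 7 of 21 Actc1 cells and 1 of 19 cells with neither. After each cell was thinned to 354002 counts, this was seen in 11 of 28, 7 of 19 and 1 of 18 cells. Before thinning, both chains were detected in 48 of 74 cells, against 46.9 with independent detection.

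**Figure D3:**
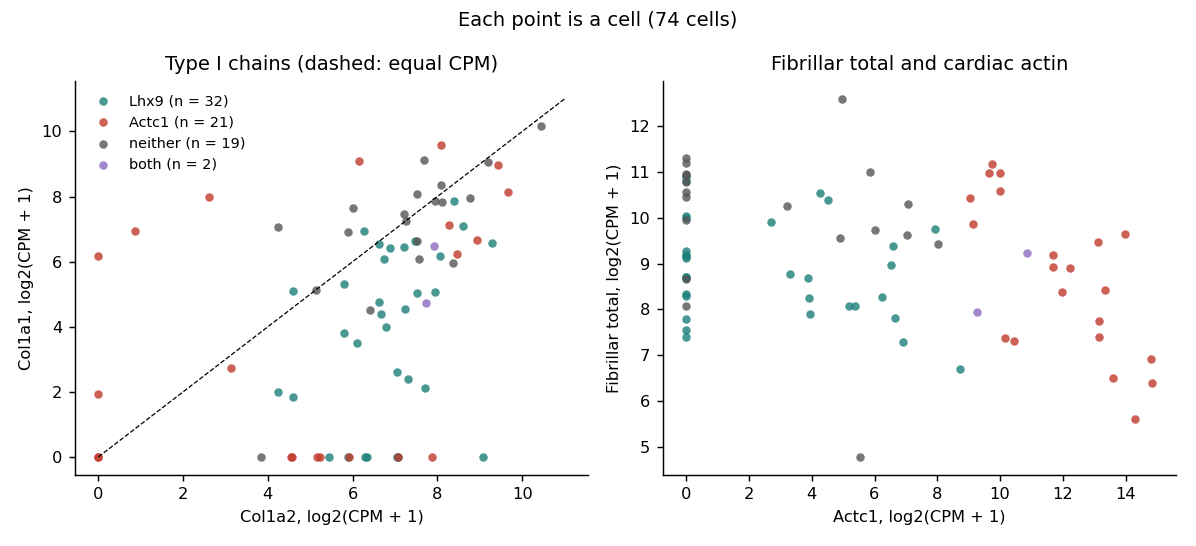
Each point is a cell, coloured by state. The left panel sets Col1a1 against Col1a2 in log2(CPM + 1), with a dashed line at equal CPM, and the right panel sets the fibrillar total against Actc1 on the same scale. Lhx9 cells lie mostly below the dashed line. The Actc1 cells from 500 to 2000 CPM of Actc1 reach up to 2323 CPM of fibrillar total, against 801 CPM in those above, with overlap between them. This split of the Actc1 cells was made after the values were seen.

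The remaining fibrillar members were lower in abundance. Col2a1, the collagen of cartilage and notochord, was detected in 22 of 32 Lhx9 cells, 10 of 21 Actc1 cells and 7 of 19 cells with neither. Its mean of 24.9 CPM in Lhx9 cells, 17.7 CPM in Actc1 cells and 23.0 CPM in cells with neither did not pass 2-fold in either comparison. Sox9, which activates Col2a1 in cartilage, was found together with it in 28 cells, and the Spearman rho of the pair over the 74 cells was -0.0007. Sox9 was detected in 54 cells and Col2a1 in 39, so many shared cells would arise with independent detection. Of 8 cartilage and bone markers, Acan, Matn1, Comp and Ibsp were detected in no cell, and Matn3 and Sp7 in 3 cells each. Sox5, detected in 36 cells, was higher in Lhx9 cells at a log2 ratio of 2.28, and Runx2, detected in 8 cells, was higher in Lhx9 cells at 1.24 and in Actc1 cells at 2.72. Col11a1, detected in 22 cells, was not called, and Col27a1, detected in 9 cells, was lower only by the Actc1 comparison, at a log2 ratio of -1.52 and a mean of 1.16 CPM in Actc1 cells against 3.34 CPM in cells with neither. After thinning, Col27a1 could no longer be called.

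Within the Actc1 cells, in a split made after the values were seen, the fibrillar total differed with the level of Actc1 itself. In the 13 cells with at least 2000 CPM of Actc1 it was 342 ± 250 CPM, against 1320 ± 834 CPM in the 8 cells from 500 to 2000 CPM. The lowest, median and highest totals were 47.4, 333 and 801 CPM in the 13 cells, and 158, 1467 and 2323 CPM in the 8 cells. Col1a1 was detected in 5 of the 13 and in 6 of the 8, and Col3a1 averaged 96.0 ± 106 CPM in the 13 and 477 ± 384 CPM in the 8. The basement membrane total was 431 ± 202 CPM in the 13 and 345 ± 156 CPM in the 8, so the classes did not run in parallel. Cells with neither averaged 1526 ± 1334 CPM of fibrillar total, and whether the 8 cells differ from them was not tested.

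Of the 5 basement membrane collagens that passed the detection filter, 1 was higher in Lhx9 cells, against 7.00% of all genes, 2 were higher in Actc1 cells, against 7.62%, and none was lower in either comparison. The type IV total was 107 ± 79.0 CPM in Lhx9 cells, 204 ± 121 CPM in Actc1 cells and 106 ± 64.6 CPM in cells with neither. Each of the 74 cells had at least 1 type IV chain at 5 or more counts. Col4a5 (ENSMUSG00000031274, chrX:141475385-141689234) was the most abundant type IV chain per kb, at 8.58 CPM per kb over all cells. Its lowest, median and highest levels were 0, 24.9 and 145 CPM in Lhx9 cells, 8.24, 94.4 and 241 CPM in Actc1 cells, and 0, 34.0 and 135 CPM in cells with neither. The log2 ratio to cells with neither was 1.14 in Actc1 cells and -0.18 in Lhx9 cells. With the limit at 2000 CPM, which moves the 8 cells below it into the group with neither, the Actc1 ratio was 0.92 and not called. The 13 cells above that limit averaged 105 ± 52.96 CPM, against 43.7 ± 34.3 CPM in the 19 cells with neither.

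Col4a2, a chain of the common type IV network, was higher in both comparisons. It had a lowest, median and highest level of 0, 22.0 and 190 CPM in Lhx9 cells, 0, 11.4 and 84.8 CPM in Actc1 cells, and 0, 2.78 and 64.6 CPM in cells with neither. Its log2 ratio was 1.33 in Lhx9 cells and 1.11 in Actc1 cells, and all states had cells at 0. Col4a1, its partner in that network, was not called, with means of 20.5 ± 43.9 CPM in Lhx9 cells, 39.02 ± 65.4 CPM in Actc1 cells and 26.3 ± 41.5 CPM in cells with neither. Col4a6 was also not called, with means of 18.3 ± 20.8, 42.4 ± 52.3 and 24.0 ± 25.2 CPM in the same order.

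Col4a1 and Col4a2 lie head to head on chromosome 8, and their annotated starts, at 11312826 and 11312805 (GRCm38), overlap by 22 bases. Col4a5 and Col4a6 start 1343 bases apart on chromosome X. Both genes of the first pair were detected in 22 cells, Col4a1 alone in 11, Col4a2 alone in 20 and neither gene in 21. Both genes of the second pair were detected in 44 cells. With independent detection, both genes would be found in 18.7 cells for the first pair and 43.7 for the second. In 21 cells, Col4a5 or Col4a6 was detected while Col4a1 and Col4a2 were not, namely 7 Lhx9 cells, 3 Actc1 cells, 10 cells with neither and 1 cell that met both rules. The Spearman rho over all cells was 0.29 for the first pair and 0.06 for the second. Since no source used here states that the libraries kept strand, reads from the shared bases of Col4a1 and Col4a2 cannot be told apart.

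Col18a1 (ENSMUSG00000001435, chr10:77052178-77166548) was detected in 71 of 74 cells, more than any other collagen. Its lowest, median and highest levels were 0, 194 and 646 CPM in Lhx9 cells, 34.6, 174 and 434 CPM in Actc1 cells, and 0.853, 185 and 1509 CPM in cells with neither. The medians were nearly equal, while the mean of cells with neither was higher and their spread wide, at 377 ± 400 CPM. The cells with neither above the highest Actc1 cell were at 495, 583, 602, 718, 777, 939 and 1509 CPM. The mean was 218 ± 175 CPM in Lhx9 cells and 195 ± 115 CPM in Actc1 cells, and no 2-fold call was made. Col15a1, the other multiplexin, was listed at 0 throughout.

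**Figure D4:**
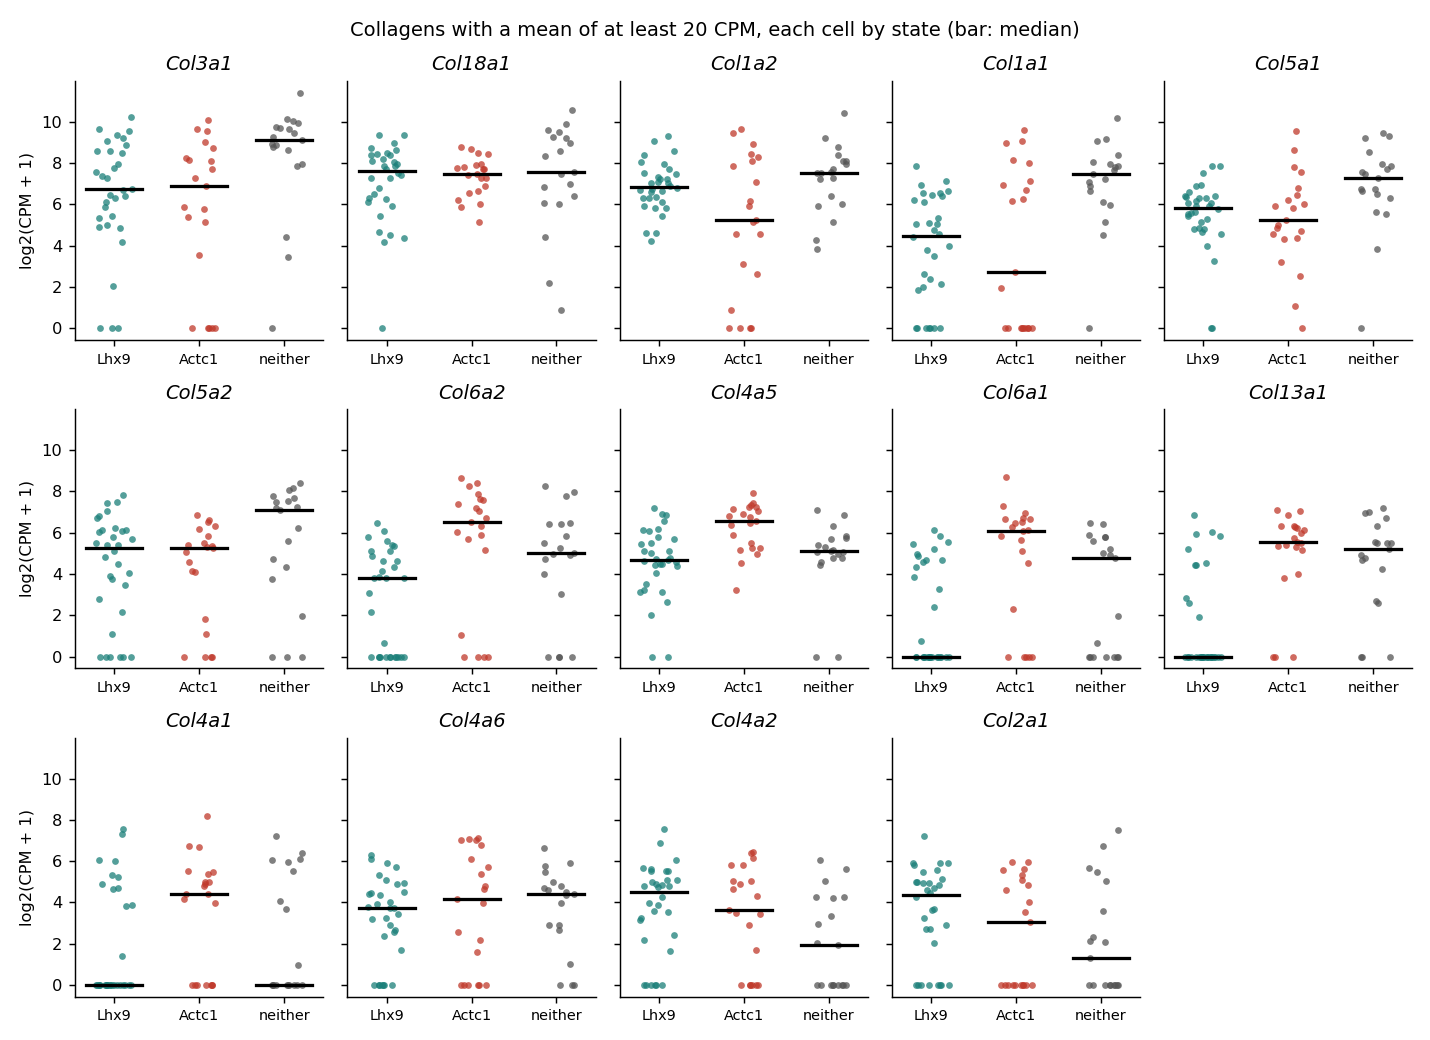
Log2(CPM + 1) of the 14 collagens with a mean of at least 20 CPM, with each cell as a point and the median as a bar, for Lhx9, Actc1 and neither cells from left to right. Col18a1 medians are level across states, the Col1a1 median is highest in cells with neither, and the Col4a5 and Col6a2 medians are highest in Actc1 cells.

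Type VI collagen, which forms beaded filaments around cells, was lowest in Lhx9 cells. Its total was 32.8 ± 27.7 CPM in Lhx9 cells, 208 ± 209 CPM in Actc1 cells and 110 ± 94.5 CPM in cells with neither. Col6a1 had medians of 0 CPM in Lhx9 cells, 67.0 CPM in Actc1 cells and 26.4 CPM in cells with neither, with highest cells of 68.3, 421 and 87.3 CPM. It was called lower in Lhx9 cells, at a log2 ratio of -1.02, and higher in Actc1 cells, at 1.45. The Lhx9 call, close to the limit, was lost with scran size factors. With the Actc1 limit at 2000 CPM, which moves the 8 cells below it into the group with neither, the Actc1 ratio was 0.14 and not called. Those 8 cells averaged 105 ± 138 CPM and the 13 above the limit 55.2 ± 45.8 CPM, against 27.1 ± 30.3 CPM in the 19 cells with neither.

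Col6a2, the neighbour of Col6a1 on chromosome 10, had medians of 12.8 CPM in Lhx9 cells, 91.6 CPM in Actc1 cells and 31.7 CPM in cells with neither. Its log2 ratio was -1.92 in Lhx9 cells, which was called lower, and 0.85 in Actc1 cells. Col6a3, whose chain completes the common type VI trimer, was found in 1 Lhx9 cell, 2 Actc1 cells and 4 cells with neither. All 3 chains were detected in 3 cells, and Col6a1 with Col6a2 but without Col6a3 in 25. Col6a1 and Col6a2 were found together in 28 cells, against 27.6 with independent detection, and Col6a1 and Col6a3 in 3, against 3.78.

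The transmembrane collagen Col13a1 (ENSMUSG00000058806, chr10:61838236-61979108), a component of cell adhesion sites, was found in 10 of 32 Lhx9 cells (31.2%, exact 95% interval 16.1% to 50.0%), in 17 of 21 Actc1 cells (81.0%, 58.1% to 94.6%) and in 15 of 19 cells with neither (78.9%, 54.4% to 94.0%). These Clopper-Pearson intervals cover the counting of cells alone, and reads without molecular identifiers are not independent molecules. The medians were 0, 45.5 and 36.6 CPM, and the log2 ratio was -1.87 in Lhx9 cells and 0.21 in Actc1 cells. After thinning, Col13a1 was found in 7 of 28 Lhx9 cells, 17 of 19 Actc1 cells and 13 of 18 cells with neither.

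Col26a1 (ENSMUSG00000004415, chr5:136741759-136883209), a short collagen with an EMI domain, was found mostly in cells with neither. It was detected in 3 of 32 Lhx9 cells (9.38%, interval 1.98% to 25.0%), 2 of 21 Actc1 cells (9.52%, 1.18% to 30.4%) and 15 of 19 cells with neither (78.9%, 54.4% to 94.0%). The medians were 0.665, 1.24 and 18.0 CPM, and the highest cells 9.09, 32.5 and 69.7 CPM. Its log2 ratio to cells with neither was -3.57 in Lhx9 cells and -2.33 in Actc1 cells, and after thinning 0 of 28, 2 of 19 and 11 of 18 cells had it. The summed counts were 57 in Lhx9 cells (exact Poisson interval 43.2 to 73.9), 83 in Actc1 cells (66.1 to 103) and 402 in cells with neither (364 to 443). These intervals cover counting error only, and a single cell held 45.8% of the Actc1 sum.

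**Figure D5:**
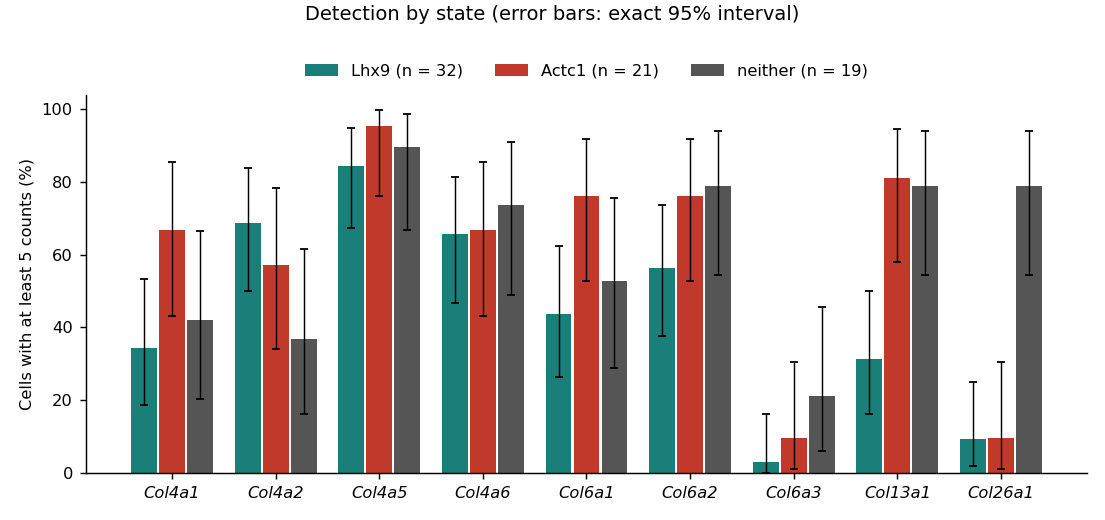
Percentage of cells with at least 5 counts of type IV and type VI chains, Col13a1 and Col26a1, as bars for Lhx9, Actc1 and neither cells from left to right, with exact 95% intervals. Col13a1 stands at 31.2%, 81.0% and 78.9%, and Col26a1 at 9.38%, 9.52% and 78.9% in these states.

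The other members called in a comparison were found in few cells. Col25a1, a transmembrane collagen of brain and muscle, was detected in 2 of 32 Lhx9 cells, 2 of 21 Actc1 cells and 5 of 19 cells with neither, and a single cell held 50.1% of its counts in the last state. Its log2 ratio was -4.33 in Lhx9 cells and -3.73 in Actc1 cells. Col9a1, a chain of the fibril-coating type IX, averaged 2.88 CPM in Lhx9 cells, 2.50 CPM in Actc1 cells and 21.7 CPM in cells with neither, where 4 of 19 cells had it and the highest reached 255 CPM. Its log2 ratio was -2.91 in Lhx9 cells and -3.12 in Actc1 cells. Col9a1 was detected in 4 of 32 Lhx9 cells and 3 of 21 Actc1 cells. Both calls were lost when the difference of mean log2(CPM + 1) was used.

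Col9a3, another type IX chain, was higher in Lhx9 cells at a log2 ratio of 2.13. It was detected in 10 of 32 Lhx9 cells, 1 of 21 Actc1 cells and 2 of 19 cells with neither, and its exons overlap Tcfl5 on the opposite strand. No cell had all 3 type IX chains, while 16 Lhx9 cells, 3 Actc1 cells and 7 cells with neither had at least 1. Col9a1, Col9a2 and Col9a3 were detected in 11, 7 and 13 of 74 cells. A cell with all 3 would thus be rare with independent detection as well. Col16a1, which also coats fibrils, was lower at a log2 ratio of -1.16 in Lhx9 cells and -2.74 in Actc1 cells. Neither Col16a1 call held after thinning, where the ratios were 1.09 and -0.23. Thinning also left out the cell with neither that was highest for Col16a1, at 45.7 CPM. Col8a1, Col8a2 and Col23a1 passed the detection filter, in 20, 19 and 15 cells, and were called in neither comparison.

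Correlations between collagens across cells were mostly low. Over the 276 pairs of the 24 genes, the median Spearman rho was 0.06, and the 3 pairs above 0.5 joined Col1a1 with Col3a1 (0.72), Col3a1 with Col5a1 (0.53) and Col1a1 with Col5a1 (0.51). Col1a1 and Col1a2 had a rho of 0.50, and Col5a1 and Col5a2 one of 0.35. The lowest value, -0.25, was between Col18a1 and Col6a2. Cells share their embryos, library preparation and depth range in ways the labels do not give, so these are descriptions without a test.

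Beside the shares of all genes called higher and lower, 7.00% and 10.3% in Lhx9 cells and 7.62% and 9.09% in Actc1 cells, the counts in the lists of collagen partners are given as descriptions. Of 14 hydroxylase and glycosyltransferase genes and partners that passed the detection filter, 1 was higher and 2 were lower in Lhx9 cells, and 0 were higher and 3 lower in Actc1 cells. P4hb, the shared subunit of prolyl 4-hydroxylase, was at 1370.1 ± 362 CPM in Lhx9 cells, 1085 ± 466 CPM in Actc1 cells and 1235 ± 386 CPM in cells with neither. P3h4, a partner of the lysyl hydroxylase Plod1, was higher in Lhx9 cells, at 358 ± 139 CPM against 154 ± 168 CPM in cells with neither. P4ha2, a catalytic subunit of prolyl 4-hydroxylase, was lower in Actc1 cells, at 36.5 ± 35.8 CPM against 76.9 ± 80.8 CPM. Ppib and P4ha1 were called in neither comparison, and P4ha3, P3h2 and P3h3 were the other genes called lower.

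Among 10 genes of chaperoning and export, Fkbp14 was higher in Lhx9 cells and Serpinh1 was lower in Actc1 cells. Serpinh1, the collagen-specific chaperone HSP47, had a mean of 47.1 ± 41.4 CPM in Lhx9 cells, 17.1 ± 20.3 CPM in Actc1 cells and 41.8 ± 35.8 CPM in cells with neither. Sparc, Sec13, Fkbp10 and Sec31a, the most abundant of this list, did not pass 2-fold in either comparison.

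Of the 4 propeptide processing genes that passed the filter, 2 were lower in Lhx9 cells, against 10.3% of all genes, 2 were lower in Actc1 cells, against 9.09%, and none was higher. Adamts2, the protease that removes amino-terminal propeptides, was detected in 4 of 32 Lhx9 cells, 4 of 21 Actc1 cells and 11 of 19 cells with neither. Its means were 2.81 ± 3.58, 3.99 ± 7.45 and 38.3 ± 40.5 CPM, with log2 ratios of -3.77 in Lhx9 cells and -3.26 in Actc1 cells. Pcolce, which enhances carboxy-terminal cleavage, averaged 68.7 ± 67.6 CPM in Lhx9 cells, 206 ± 171 CPM in Actc1 cells and 221 ± 154 CPM in cells with neither, at log2 ratios of -1.68 and -0.10. The carboxy-terminal protease Bmp1 was called in neither comparison, and Pcolce2 had no count in any Actc1 cell.

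Of 6 cross-linking enzymes, 2 were higher (7.00% of all genes) and 0 lower (10.3%) in Lhx9 cells, and 1 was higher (7.62%) and 2 lower (9.09%) in Actc1 cells. The lysyl oxidase Loxl2 was found in all 74 cells, and it, Loxl1 and the type IV sulfilimine enzyme Pxdn were called in neither comparison. Tgm2, a transglutaminase, was detected in 16 of 32 Lhx9 cells, 5 of 21 Actc1 cells and 1 of 19 cells with neither. Loxl3 was higher in Lhx9 cells and lower in Actc1 cells, and Lox, detected in 9 cells, was lower in Actc1 cells.

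Of the small proteoglycans that bind fibrils, Dcn and Fmod were higher and Bgn and Lum were lower in Lhx9 cells, and all 4 were lower in Actc1 cells. Dcn averaged 89.6 ± 87.2 CPM in Lhx9 cells, 2.96 ± 12.9 CPM in Actc1 cells and 7.86 ± 23.5 CPM in cells with neither, and was detected in 27, 1 and 3 cells of these states. The lower Dcn of Actc1 cells did not hold after thinning, where its log2 ratio was 0.14. Bgn, Fmod and Lum were detected in 12, 10 and 8 of the 74 cells, and the lower Lum in Lhx9 cells rested on 1 cell with neither, since without the highest cell of each state its log2 ratio was 0.10.

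Among collagen receptors, Ddr1, a tyrosine kinase activated by collagen, was higher in Lhx9 cells, at 184 ± 91.9 CPM against 55.1 ± 45.5 CPM in cells with neither. Itgb1, the beta subunit of the collagen-binding integrins, was at 519 ± 146 CPM in Lhx9 cells, 487 ± 170 CPM in Actc1 cells and 483 ± 168 CPM in cells with neither. Ddr2, the collagen uptake receptor Mrc2 and the integrin Itga1 were lower in Actc1 cells. In all, 1 of 5 receptors was higher (7.00% of all genes) and 0 were lower (10.3%) in Lhx9 cells, and 0 were higher (7.62%) and 3 lower (9.09%) in Actc1 cells.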

How the data were processed

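The authors deposited 1 table of estimated counts per gene for the 74 cells, in whole numbers. The submitters' processing notes name kallisto, its version not given in the sources used here, and the build hg38, although every row has a mouse Ensembl ID. Neither the notes nor the labels state how transcripts were summed to genes or how reads of similar or overlapping genes were divided.

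Symbols, positions and transcript lengths were taken from GENCODE M21 (GRCm38), which matched 29857 of 30323 rows, and the 466 others held 0.357% of counts. Counts were divided by each cell's total to give CPM, and levels per kb used the longest coding transcript. Cells were sorted singly, none of the 74 deposited cells was left out and no doublet caller was run. The numbers in the cell titles have gaps. A gene was detected at 5 counts. Calls were a ratio of mean CPM of at least 2 among 11511 genes detected in at least 10% of cells, since 1 sample allows no test. The rule was run on simulated data, with folds planted only in genes above 20 CPM and with noise drawn separately for each gene. Recovery of a fold was therefore not tested for collagens of lower abundance. Values by state were given for collagens with a mean of at least 20 CPM or called in a comparison, and for the 4 most abundant members of each list of collagen partners and those called with at least 50 CPM; other list members are named where the count of calls is small, after their values were seen. The members, classes and lists were chosen with earlier results of these data known. Alternatives changed the scaling (scran 1.30.0), depth (thinning to 354002 counts), detection, fold, added CPM and state limits. The software was R 4.3.3 and Python 3.11.15 with SciPy 1.17.1, pandas 2.3.3, numpy 2.4.6 and matplotlib 3.10.9.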

Additional observations from a re-analysis of the deposited data

How the results depend on the processing

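The counts of collagens called depended on the rule of size more than on the scaling. Without the detection filter, 6 collagens were higher and 20 lower in Lhx9 cells, and 6 were higher and 16 lower in Actc1 cells, than in cells with neither, of 40 collagens, where 21.2%, 17.4%, 17.2% and 17.7% of all genes were called. At 3-fold these were 1, 7, 0 and 5 in that order, against 3.55%, 4.47%, 3.87% and 4.196% of all genes. With 10 CPM added to both means, 0 were higher in Lhx9 cells (1.94% of all genes), 1 was higher (2.30%) and 5 were lower (2.02%) in Actc1 cells. Thinning left 5 lower in Actc1 cells (8.29%), and detection at 1 count gave 4 higher in Lhx9 cells (10.2%). With the Lhx9 limit at 1 count, 7 were lower in Lhx9 cells, where the calls of Col5a1, Col5a2, Col6a1 and Col6a2 were lost (8.45% of all genes), and 6 higher in Actc1 cells (8.63%). With the Actc1 limit at 2000 CPM, which also put 8 more cells into the group with neither, 1 was higher (7.80%) and 13 were lower (13.3%) in Actc1 cells. With type IV alone as the basement membrane class, its total was 107 CPM in Lhx9 cells and 204 CPM in Actc1 cells. After thinning, Col16a1 in Lhx9 cells turned to a log2 ratio of 1.09, Lum in Lhx9 cells to 0.55 and Dcn in Actc1 cells to 0.14. Without the highest cell of each state, Lum in Lhx9 cells turned to 0.10. The cause of these changes was not tested, apart from the number of genes that a looser filter lets in. Col1a1, Col13a1, Col25a1 and Col26a1 were lower in Lhx9 cells, and Col5a2, Col25a1 and Col26a1 in Actc1 cells, under all 15 alternatives. Some alternatives could not change these calls, since a looser detection filter only lets in more genes. Putting the cells that met both rules into the Lhx9 state also left the Actc1 comparison as it was, and the reverse. Col25a1 and Col26a1 passed the detection filter only through cells with neither, where they were highest. The 15 alternatives are therefore no support for their lower calls. No paired analysis was possible because the labels give 1 group of cells with no pairing.

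Thinning was a single random draw and left out 4 Lhx9 cells, 2 Actc1 cells, 1 cell with neither and 1 cell that met both rules. The cell with neither that was left out had the highest fibrillar total, 6196 CPM. The parts of equal depth and of the lost cells in the changes after thinning were not separated. The 20 collagens below the detection filter were called in neither comparison because they did not enter it, and the labels leave embryo, litter and library batch unknown, so the states cannot be told apart from such sources.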
